A study of Mus musculus with 6 samples.

Results

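The genes described here encode the translation initiation factors eIF1 to eIF6, the elongation factors eEF1 and eEF2, and the proteins named after them, such as the kinases, methyltransferases and binding proteins that act on these factors. They were chosen by a rule on the symbol, with earlier results of these data known. Protein-coding genes whose symbol in GENCODE M21 (mm10) begins with Eif and a digit from 1 to 6, or with Eef and the digit 1 or 2, were taken, which gave 68 of the 53801 genes in the count files. The same symbols also matched 9 processed pseudogenes and 1 lincRNA, which were left out. Eif4e1b, an oocyte form of the cap-binding protein, had 0 counts in all 6 samples, and the other 67 genes passed the filter on low counts.

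The data were bulk RNA-seq of maxillary prominences from C57BL/6J mouse embryos at E12.5. The 3 WT samples were compared with 3 samples of wnt1cre; Rosa26Dlx2/- embryos (Dlx2OE), in which Cre removes a stop cassette from a CAG-driven, 3xFlag-tagged Dlx2 at the Rosa26 locus. Wnt1-Cre acts in neural crest cells, so epithelium, endothelium, blood and muscle in the dissected tissue are not its targets, and no sample with Cre alone or with the knock-in alone was analysed here. The labels give 7 littermates as the source of RNA and the study's methods give another number. Whether a sample holds more than 1 embryo is not stated. All libraries but WT sample 2 held both Xist and Y-linked RNA in quantity, as described below. Whether they mix embryos of both sexes was not tested. The p-values measure the spread between the samples as they were sequenced.

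Total counts on genes ranged from 30332754 to 31308813 in WT and from 26155500 to 30570784 in Dlx2OE. Dlx2 itself had 42.9, 35.0 and 45.2 CPM in the WT samples and 119, 131 and 123 CPM in the Dlx2OE samples (log2 fold change 1.60, edgeR adjusted p = 0.00241). The 9 markers of facial mesenchyme were all present, with summed levels of 1458 to 1730 CPM in WT and 1917 to 2271 CPM in Dlx2OE. The library of Dlx2OE sample 3 stood apart, with 14.7% of its reads outside annotated exons against 5.03% to 7.81% in the other 5. Levels are CPM, the read counts of a gene relative to the TMM-scaled library total. A gene was called lower or higher in Dlx2OE at an adjusted p under 0.05 in edgeR's quasi-likelihood test over 17514 genes, and log2 fold changes are those of this fit, Dlx2OE over WT.

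Translation begins when eIF2 brings the initiator tRNA to the small ribosomal subunit, where eIF1, eIF1A, eIF3 and eIF5 are bound. The eIF4F complex recruits this subunit to the capped end of the mRNA, the start codon is found by scanning, and eIF5B joins the large subunit. eEF1A then delivers each aminoacyl-tRNA and eEF2 moves the ribosome along by 1 codon. Cranial neural crest cells are known for their sensitivity to defects of ribosome production and translation. Most ribosomal protein mRNAs and several factor mRNAs begin with a C followed by a run of pyrimidines, the 5′ terminal oligopyrimidine (TOP) motif, through which mTORC1 signalling controls their translation and stability.

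The sequence at the annotated start was examined because the factors with TOP mRNAs are those usually regulated with the ribosomal proteins. In RefSeq promoter sequences (GRCm38.p6), a 30-base window was read from 10 bases before to 20 bases after the start, on the strand of the gene. It was searched for a C followed by 6 or more bases that are each C or T, so that a run had at least 7 bases. Such a run lay in 14 of the 52 factor genes with an entry (26.9%), in 29 of 59 ribosomal protein genes (49.2%) and in 15.6% of all 27025 genes. Among 9 factor genes listed for their known TOP mRNAs (Eef1a1, Eef1b2, Eef1d, Eef1g, Eef2, Eif3e, Eif3f, Eif3h and Eif4b), 5 had an entry and 3 of these held a run. Those 5 windows are shown with that of Rps6, a small-subunit ribosomal protein gene, and those of Eif1b and Eif4g1, which are described below. Capitals mark the run, and a window without capitals held none.
Eef1a1 (chr9:78481705-78481734, minus strand): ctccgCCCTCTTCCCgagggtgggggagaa
Eif3f (chr7:108934405-108934434, plus strand): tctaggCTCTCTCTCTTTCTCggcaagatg
Eif4b (chr15:102073763-102073792, plus strand): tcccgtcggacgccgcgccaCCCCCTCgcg
Eef1b2 (chr1:63176821-63176850, plus strand): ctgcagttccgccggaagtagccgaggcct
Eef2 (chr10:81176621-81176650, plus strand): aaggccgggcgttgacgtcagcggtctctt
Rps6 (chr4:86857348-86857377, minus strand): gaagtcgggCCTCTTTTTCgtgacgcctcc
Eif1b (chr9:120492596-120492625, plus strand): gcgcggggctaaatacgcggcgccggccat
Eif4g1 (chr16:20672717-20672746, plus strand): gcgcagctccgccctctgcgccggtcacgt
The runs in Eef1a1 and Rps6 each had 10 bases and began 5 bases and 1 base before the annotated start. The run of 15 bases in Eif3f began 4 bases before it, and that of Eif4b lay 11 bases after it. Where transcription starts in this tissue was not measured. A run in a window therefore need not be the 5′ end of an mRNA, and a window without a run does not show that the mRNA lacks the motif.

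Most translation factor genes differed little between genotypes. Of the 67 genes tested, 1 was called lower in Dlx2OE (Eif1b), which is 1.49% against 3.46% of all genes. With edgeR, 0 were called higher against 2.99% of all genes, and DESeq2 also called 0 higher. At an unadjusted p under 0.05, 14 of the 67 were lower and 3 were higher, 17 in all. Of all 17514 genes, 2695 were lower and 2477 higher at that limit, 29.5% in all. The small differences leaned to the lower side. The log2 fold change was below 0 in 43 of the 67, against 49.7% of all genes, and its median was -0.14, against 0.00 over all genes. All Dlx2OE samples lay below all WT samples in 15 genes (22.4%, against 17.3% of all genes) and above them in 6 genes (8.96%, against 16.7%).

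**Figure D1:**
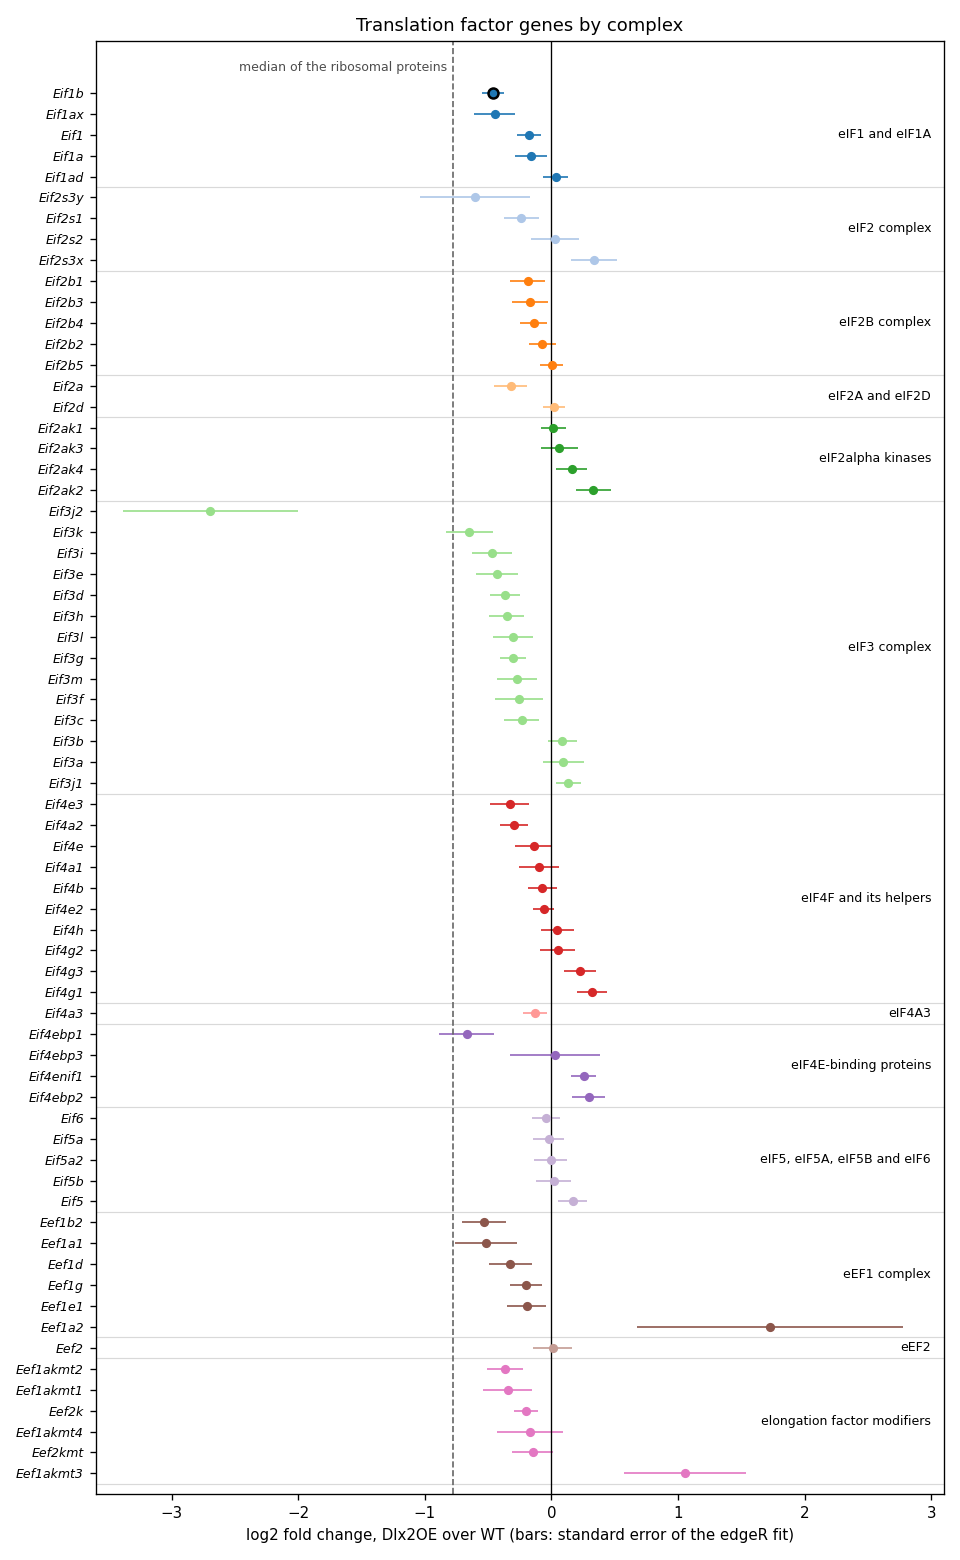
Log2 fold change of the 67 tested translation factor genes, Dlx2OE over WT, grouped by complex. Points are edgeR estimates, bars are their standard errors, the ringed point is Eif1b, the single gene called, and the dashed line marks the ribosomal protein median of -0.77. Most points of eIF3 and eEF1 lie left of 0, most others lie near 0, and all but Eif3j2 lie right of the dashed line.

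The cytoplasmic ribosomal protein genes were set beside the factors, since the question was whether the factors follow them down. All 80 were tested and 24 were called lower, 30% against 3.46% of all genes. In 59 of the 80 (73.75%, against 17.3% of all genes) all Dlx2OE samples lay below all WT samples. Their median log2 fold change was -0.77, and 79 of the 80 values were below 0. The value of Rps6 was -0.77, from 1582, 1605 and 947 CPM in WT to 879, 851 and 699 CPM in Dlx2OE (adjusted p = 0.0749). The median was -0.78 over the 47 genes of the large subunit and -0.77 over the 33 of the small subunit. The factors themselves, without kinases, binding proteins and modifying enzymes, had a median of -0.17 over 51 genes, and the 9 TOP factors had -0.33. Under the thresholds of the study's methods, an adjusted p under 0.05 with a log2 fold change beyond 1, 15 ribosomal protein genes and 0 factor genes were called (1.62% of all genes were lower and 1.5% higher).

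The summed level of the ribosomal protein genes was 97916, 103352 and 62262 CPM in WT samples 1 to 3 and 59395, 54533 and 45444 CPM in Dlx2OE samples 1 to 3. WT sample 3 was thus close to the Dlx2OE samples and far from the other WT samples. The summed level of the factor genes was 34944, 32673 and 26830 CPM in WT and 27483, 27194 and 24164 CPM in Dlx2OE. Here WT sample 3 lay below 2 of the 3 Dlx2OE samples, so the genotypes overlapped. Much of this sum was Eef1a1. Without it the sums were 18485, 17851 and 16755 CPM in WT and 17552, 16893 and 15500 CPM in Dlx2OE, and they also overlapped.

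The samples were also compared by list medians. Relative to the mean of the WT samples, the median ribosomal protein gene lay at 0.20, 0.27 and -0.50 (log2 CPM) in WT samples 1 to 3 and at -0.58, -0.69 and -0.94 in Dlx2OE samples 1 to 3. The median factor gene lay at 0.09, 0.04 and -0.06 in WT and at -0.05, -0.09 and -0.23 in Dlx2OE. The 9 TOP factors were between these groups, at 0.14, 0.09 and -0.22 in WT and at -0.18, -0.27 and -0.53 in Dlx2OE. In each of the 3 lists Dlx2OE sample 3 was lowest and WT sample 3 was the lowest WT sample. Without Dlx2OE sample 3 the median log2 fold change was -0.08 for the factor genes and -0.68 for the ribosomal protein genes, and without WT sample 3 it was -0.15 and -0.98. Without WT sample 3, edgeR called 10 factor genes and 72 ribosomal protein genes lower (7.14% of all genes). Without another sample it called 0 to 2 factor genes. For ribosomal protein genes the count was 1 or 2 without WT sample 1, WT sample 2, Dlx2OE sample 2 or Dlx2OE sample 3 (0.567%, 0.222%, 0.4% and 0.793% of all genes), and 28 without Dlx2OE sample 1 (5.33%). DESeq2 called 7 factor genes and 71 ribosomal protein genes lower (7.21% of all genes), and edgeR with no filter on low counts called 4 and 50 (3.51%).

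**Figure D2:**
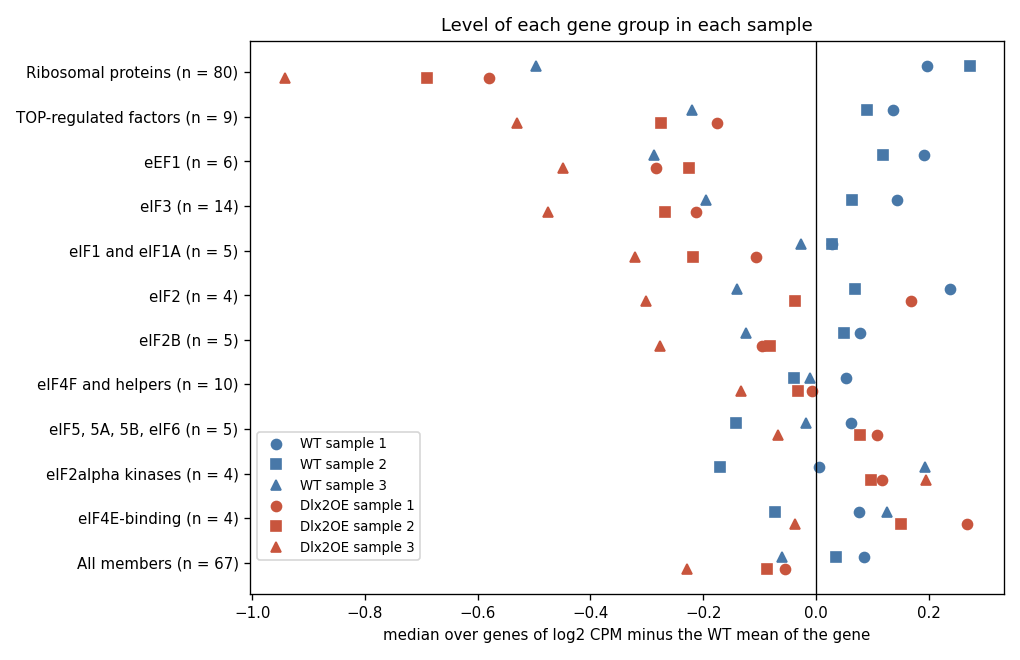
Level of each gene group in each sample, as the median over its genes of the log2 CPM minus the gene's WT mean. Blue marks are WT, red marks are Dlx2OE, and circle, square and triangle are samples 1, 2 and 3. Ribosomal proteins spread from 0.27 to -0.94. TOP factors, eEF1 and eIF3 spread over a smaller range, with WT samples 1 and 2 on the right and Dlx2OE sample 3 on the left. eIF2 spread from 0.24 in WT sample 1 to -0.30 in Dlx2OE sample 3. In that sample eIF1 and eIF1A lay at -0.32 and eIF2B at -0.28. Most other marks lie closer to 0.

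eIF1 and eIF1A bind near the decoding site of the small subunit and guard the choice of the start codon. Eif1b, a close paralog of Eif1, was the single factor gene called. It lies on chromosome 9 from 120492232 to 120495330 (ENSMUSG00000006941, forward strand), and 12.7% of its exon bases overlap D830035M03Rik. Its level was 71.6, 70.1 and 68.9 CPM in WT and 49.2, 50.2 and 53.6 CPM in Dlx2OE. The genotypes did not overlap, and WT sample 3 lay with the other WT samples. The log2 fold change was -0.46 ± 0.09 (SE, n = 3 and 3, adjusted p = 0.0264). It stayed between -0.50 and -0.45 when each sample was left out, and was called in 2 of these 6 fits. Eif1b is short, and after a correction for gene length and GC content the value was -0.16 (adjusted p = 0.314). Over all 16 alternative fits the adjusted p ranged from 0.00336 to 0.314, with 9 under 0.05.

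Eif1 was the more abundant paralog, with 207, 220 and 221 CPM in WT and 200, 186 and 187 CPM in Dlx2OE. Its log2 fold change was -0.18 (adjusted p = 0.240), or 0.02 with the length and GC correction. Eif1ax, the X-linked gene of eIF1A, had 325, 292 and 210 CPM in WT and 207, 214 and 186 CPM in Dlx2OE (log2 fold change -0.45, adjusted p = 0.123), and WT sample 3 again lay with Dlx2OE. The autosomal Eif1a had a log2 fold change of -0.16 (adjusted p = 0.423). Eif1ad, whose product resembles eIF1A, had 0.03.

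eIF2 is a trimer that carries the initiator tRNA with GTP. With edgeR 0 of its 4 genes were called, with 0 at an unadjusted p under 0.05 and 0 by DESeq2. Their median was -0.10, but it was -0.25 without WT sample 3, -0.01 without Dlx2OE sample 3 and 0.01 without WT sample 1. Eif2s1, which encodes the alpha subunit that stress kinases phosphorylate, had 199, 174 and 142 CPM in WT and 149, 157 and 131 CPM in Dlx2OE (log2 fold change -0.24, adjusted p = 0.293). Eif2s2, for the beta subunit, had 0.03, or -0.14 without WT sample 3.

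The gamma subunit is encoded on both sex chromosomes, so its genes are given beside the sex-linked RNA of the libraries. Eif2s3x had 225, 132 and 177 CPM in WT and 215, 243 and 217 CPM in Dlx2OE (log2 fold change 0.34, adjusted p = 0.252). Eif2s3y had 19.3, 48.0 and 29.8 CPM in WT and 31.3, 22.5 and 9.97 CPM in Dlx2OE (log2 fold change -0.61, adjusted p = 0.376). WT sample 2, with the highest Eif2s3y and the lowest Eif2s3x, also had the fewest counts of Xist, the RNA of the inactive X. Xist had 41270 counts in WT sample 1, 307 in sample 2 and 33375 in sample 3, and 35070 to 68121 counts in Dlx2OE. Ddx3y of the Y chromosome had 878, 2445 and 1934 counts in WT and 1584, 973 and 436 counts in Dlx2OE. Thus 5 of the 6 libraries held both RNAs in quantity. The sum of both gamma genes was 244, 180 and 207 CPM in WT and 246, 265 and 227 CPM in Dlx2OE. The part of the sexes in this difference was not tested.

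eIF2B reloads eIF2 with GTP. Its 5 genes had log2 fold changes from -0.19 to 0.00, with a median of -0.14 (-0.08 without Dlx2OE sample 3), 0 calls with edgeR, 0 at an unadjusted p under 0.05 and 0 with DESeq2. Eif2b5, for the catalytic epsilon subunit, had 96.9, 92.0 and 90.9 CPM in WT and 98.6, 95.3 and 86.5 CPM in Dlx2OE. Eif2b1 had the smallest p of the 5 (log2 fold change -0.19, adjusted p = 0.386). Of the alternative initiator tRNA carriers, Eif2a had 151, 142 and 112 CPM in WT and 108, 117 and 99.2 CPM in Dlx2OE (log2 fold change -0.32, adjusted p = 0.152), and Eif2d had 0.02, or -0.12 with the length and GC correction.

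The 4 kinases of eIF2alpha had log2 fold changes above 0, from 0.02 to 0.33 with a median of 0.11, but 2 of the 4 were below 0 with the length and GC correction, and the median was 0.02 without WT sample 2 and 0.21 without WT sample 3. Eif2ak2, which encodes PKR, the sensor of double-stranded RNA, had 25.7, 22.1 and 29.2 CPM in WT and 29.4, 35.6 and 31.9 CPM in Dlx2OE. Its genotypes were separated only narrowly (log2 fold change 0.33, adjusted p = 0.155). Eif2ak3, for the endoplasmic reticulum sensor PERK, had 0.06 (adjusted p = 0.792), and Eif2ak4, for the amino acid sensor GCN2, had 0.16 (adjusted p = 0.411).

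eIF3 is the largest initiation factor, a scaffold that holds the small subunit and the other factors together. Its genes had the lowest median of the multi-subunit complexes of initiation, -0.30, with 11 of 14 values below 0. With edgeR 0 were called. At an unadjusted p under 0.05, 7 of the 14 passed, all on the lower side, where 2695 of all 17514 genes lay at that limit. DESeq2 called 3 lower (Eif3i, Eif3j2 and Eif3k, against 7.21% of all genes). In 6 of the 14 (42.9%, against 17.3% of all genes) all Dlx2OE samples were below all WT samples. The following subunits other than Eif3a, Eif3e and Eif3j2 were picked after their values were seen.

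Eif3k, a peripheral subunit, had 325, 327 and 204 CPM in WT and 199, 182 and 165 CPM in Dlx2OE (log2 fold change -0.65, adjusted p = 0.0744). The highest Dlx2OE sample lay just below WT sample 3. Eif3i had 260, 263 and 185 CPM in WT and 184, 175 and 151 CPM in Dlx2OE, with the same order (log2 fold change -0.47, adjusted p = 0.10). Eif3e, also known as the integration site Int6, had 611, 614 and 448 CPM in WT and 460, 426 and 356 CPM in Dlx2OE (log2 fold change -0.43, adjusted p = 0.135). Eif3d, whose product can bind the cap, had -0.37 (adjusted p = 0.0891), but 43.3% of its exon bases overlap Gm17638. Eif3h and Eif3g had -0.35 and -0.30, or -0.10 and -0.10 with the length and GC correction. With that correction Eif3k had -0.51 and Eif3i -0.39. The large subunits Eif3a and Eif3b had 0.09 and 0.09 (-0.02 for Eif3a with a correction for gene length and GC content), while Eif3c had -0.24. Eif3a had 744, 528 and 575 CPM in WT and 680, 702 and 586 CPM in Dlx2OE (adjusted p = 0.726).

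Eif3j2 had the lowest value of any factor gene, -2.69 ± 0.69 (SE, n = 3 and 3, adjusted p = 0.0568). It rested on 242, 38 and 371 counts in WT and 32, 35 and 30 counts in Dlx2OE, which were 8.27, 1.26 and 11.9 CPM and 1.08, 1.11 and 1.11 CPM. WT sample 2 was close to all Dlx2OE samples, and without it the adjusted p was 0.0243. Over the alternatives it ranged from 0.00427 to 0.152. Eif3j1 is a close paralog, and reads that fit both genes are not counted, so their levels are uncertain and can be understated. The share of such reads was not measured here. Eif3j1 had 67.4, 66.1 and 57.6 CPM in WT and 74.0, 67.8 and 67.9 CPM in Dlx2OE (log2 fold change 0.13).

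The eIF4F complex joins the cap-binding protein eIF4E, the helicase eIF4A and the scaffold eIF4G. Of the 10 genes of this class that were tested, 0 were called with edgeR and 0 with DESeq2. At an unadjusted p under 0.05, 1 was lower and 1 higher (29.5% of all genes passed that limit). The median was -0.07, or -0.02 without WT sample 1 and -0.10 without Dlx2OE sample 1. Eif4g1, the main scaffold, had the highest value, 0.32 ± 0.12 (SE, n = 3 and 3, adjusted p = 0.126), or 0.16 with the length and GC correction. Its levels were 608, 576 and 649 CPM in WT and 793, 746 and 745 CPM in Dlx2OE, which did not overlap. The adjusted p ranged from 0.0683 to 0.345 over the alternatives. The related Eif4g3 and Eif4g2 had 0.22 and 0.05, or -0.02 and -0.09 with the length and GC correction.

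Eif4e had 252, 219 and 176 CPM in WT and 201, 208 and 177 CPM in Dlx2OE (log2 fold change -0.14, adjusted p = 0.544). The helicase genes Eif4a1 and Eif4a2 encode near-identical proteins. Eif4a2 had 494, 489 and 448 CPM in WT and 360, 409 and 398 CPM in Dlx2OE, without overlap (log2 fold change -0.29, adjusted p = 0.133), and 13.3% of its exon bases overlap other genes, including small nucleolar RNAs. Eif4a1 had -0.10 (adjusted p = 0.694), and Eif4b, the helicase cofactor, had -0.07 (adjusted p = 0.692). Eif4a3, a helicase of the exon junction complex, had -0.13, or 0.06 with the length and GC correction.

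The eIF4E-binding proteins sequester eIF4E until mTORC1 phosphorylates them. The paralogs Eif4ebp1 and Eif4ebp2 had values on opposite sides of 0. Eif4ebp1 had 44.6, 47.2 and 29.6 CPM in WT and 31.1, 25.4 and 19.8 CPM in Dlx2OE (log2 fold change -0.67 ± 0.22, SE, n = 3 and 3, adjusted p = 0.0945). Here Dlx2OE sample 1 lay above WT sample 3. The adjusted p ranged from 0.0276 to 0.280 over 16 alternatives and was under 0.05 in 5, among them DESeq2. Eif4ebp2 had 177, 189 and 228 CPM in WT and 258, 220 and 252 CPM in Dlx2OE (log2 fold change 0.30, adjusted p = 0.170), so 1 Dlx2OE sample lay below the highest WT sample. The difference between the paralogs was not tested. Eif4ebp3 was rare, with 12 to 21 counts per sample. Eif4enif1, which encodes the eIF4E transporter 4E-T, had 0.25, without overlap between genotypes.

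The late-acting factors showed no call with edgeR among 5 genes, 0 at an unadjusted p under 0.05 and 0 with DESeq2. Their median was -0.01, and it ranged from -0.04 to 0.06 when each sample was left out. Eif5, the GTPase activator of eIF2, had 294, 250 and 303 CPM in WT and 306, 335 and 310 CPM in Dlx2OE (log2 fold change 0.17, adjusted p = 0.355). Eif5a, whose product carries hypusine and relieves stalled ribosomes, had 490, 537 and 503 CPM in WT and 559, 493 and 454 CPM in Dlx2OE. Its log2 fold change was -0.02 (adjusted p = 0.916), and that of its paralog Eif5a2 was -0.01 (adjusted p = 0.979). Eif6, which keeps the subunits apart, had -0.04 (adjusted p = 0.821). The sign of Eif5a, Eif5a2 and Eif6 changed with library size alone as scaling.

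Elongation is run by abundant factors. Per kilobase of exon, Eef1a1 had the highest level of all factor genes in WT, 5529 ± 1330 CPM per kb (SD, n = 3), followed by Eef2 with 766 ± 61.4, Eef1g with 366 and Eif4a1 with 311. eEF1A brings aminoacyl-tRNA to the ribosome, and the eEF1B subunits encoded by Eef1b2, Eef1d and Eef1g recharge it with GTP. The class of 6 eEF1 genes also holds Eef1e1 (log2 fold change -0.19), whose product is not an eEF1A or eEF1B subunit. With edgeR 0 of the 6 genes were called and 1 had an unadjusted p under 0.05 (29.5% of all genes). DESeq2 called 2 of the 6 lower (Eef1a1 and Eef1b2, against 7.21% of all genes). Their median was -0.26, and -0.41 without WT sample 3.

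Eef1a1 (ENSMUSG00000037742, chromosome 9, 78478449 to 78489151, reverse strand) had 16458, 14822 and 10074 CPM in WT and 9931, 10302 and 8663 CPM in Dlx2OE. WT sample 3 lay among the Dlx2OE samples. For the ribosomal protein genes it was close to them, but its summed level was above that of every Dlx2OE sample. The log2 fold change was -0.52 ± 0.24 (SE, n = 3 and 3, adjusted p = 0.195), and the adjusted p ranged from 0.0394 to 0.458 over 16 alternatives, 1 of them under 0.05. Eef1b2 had 746, 736 and 539 CPM in WT and 508, 498 and 388 CPM in Dlx2OE (log2 fold change -0.54 ± 0.17, SE, n = 3 and 3, adjusted p = 0.0944), without overlap. Eef1d and Eef1g had -0.33 and -0.20.

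Eef2, whose product moves the ribosome along the mRNA, did not share this pattern of samples. It had 2310, 2667 and 2659 CPM in WT and 2785, 2535 and 2367 CPM in Dlx2OE. The log2 fold change was 0.01 ± 0.16 (SE, n = 3 and 3, adjusted p = 0.972), and it ranged from -0.06 to 0.07 over the alternatives. Its mRNA is a known TOP mRNA, like those of Eef1a1 and Eef1b2, although the start windows of Eef2 and Eef1b2 shown above held no run. The Eef2 window ended in C and T bases, so a longer run could have been cut off there. Among the 9 TOP factors, 8 had a log2 fold change below 0 and Eef2 was the exception.

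Eef1a2, the form of eEF1A found in neurons and muscle, was rare, with 5, 51 and 25 counts in WT and 8, 55 and 186 counts in Dlx2OE. Its levels of 0.171, 1.69 and 0.802 CPM in WT and 0.270, 1.75 and 6.87 CPM in Dlx2OE overlapped (log2 fold change 1.73 ± 1.05, SE, n = 3 and 3, adjusted p = 0.303). The value was 0.19 without Dlx2OE sample 3 and 2.57 without WT sample 2. The summed level of the 9 neuron markers was 81.6, 345 and 192 CPM in WT and 200, 691 and 1553 CPM in Dlx2OE, in which Dlx2OE sample 3 was also highest. The summed level of the 7 muscle markers was 162, 326 and 190 CPM in WT and 71.9, 140 and 219 CPM in Dlx2OE. The part of neurons or muscle in the Eef1a2 level was not tested. In bulk samples, fewer cells of a type and less RNA per cell cannot be told apart.

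Of the enzymes that modify the elongation factors, 6 genes were tested and 5 had a log2 fold change below 0. With edgeR 0 were called, 1 was lower at an unadjusted p under 0.05 (2695 of all 17514 genes were lower at that limit), and DESeq2 called 0. Eef2k, the kinase that inhibits eEF2, had 58.5, 61.0 and 65.9 CPM in WT and 55.9, 50.9 and 54.5 CPM in Dlx2OE, without overlap (log2 fold change -0.20, adjusted p = 0.189). With the length and GC correction it was the single factor gene called (-0.33, adjusted p = 0.0456, against a range up to 0.420 over the alternatives). Eef1akmt2, a lysine methyltransferase of eEF1A, had 41.4, 39.7 and 33.2 CPM in WT and 31.5, 32.3 and 24.9 CPM in Dlx2OE (log2 fold change -0.37, adjusted p = 0.135). Eef1akmt3 was near the detection limit, with 4 to 17 counts per sample.

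**Figure D3:**
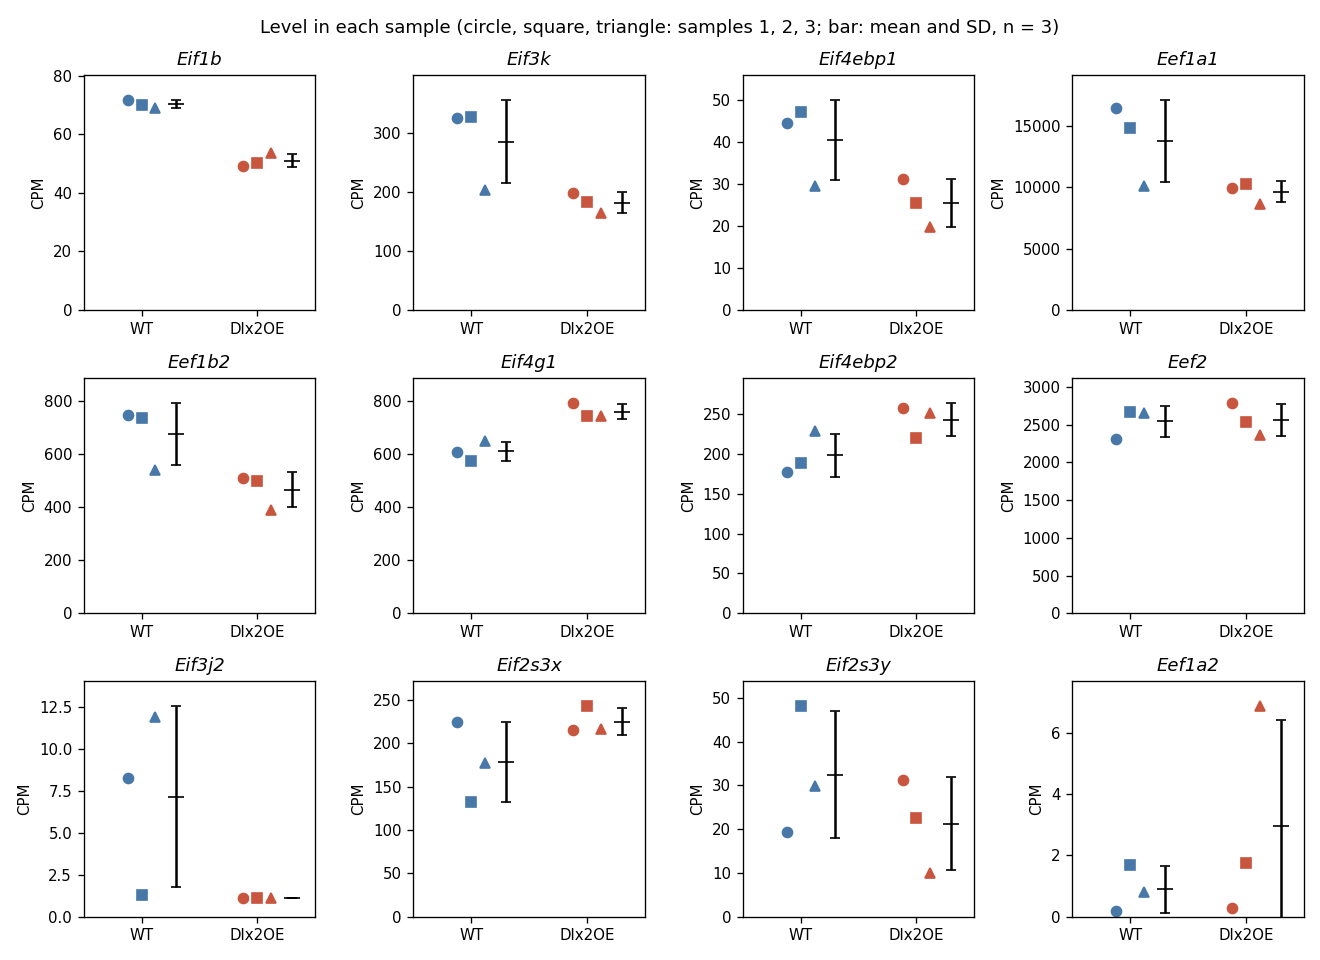
Levels of 12 factor genes in each sample, in TMM-scaled CPM on axes that start at 0. Blue is WT, red is Dlx2OE, marks are samples 1 to 3, and black bars give the mean and SD of 3 samples, with the lower SD bar of Eef1a2 in Dlx2OE ending at the axis. Eif1b separated the genotypes with a small spread, WT sample 3 sat near Dlx2OE in Eif3k, Eif4ebp1 and Eef1a1, and Eef2 overlapped fully.

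Log2 fold changes differed with exon length. The 8 factor genes shorter than 2000 bases had a median log2 fold change of -0.32, the 27 genes from 2000 to 4000 bases had -0.19, and the 32 longer ones had 0.00. Over all tested genes the medians in the same ranges were -0.26, -0.10 and 0.11. Ribosomal protein genes are short, with a median exon length of 1776 bases against 3702 for the factor genes, but their medians were -0.90, -0.68 and -0.79 in the 3 ranges. Spearman's rho of length and log2 fold change was 0.40 across the 67 factor genes, 0.37 across the 80 ribosomal protein genes and 0.28 across all genes. These points share the 6 libraries and are given as a description. With the length and GC correction the median was -0.05 for the factor genes, -0.17 for eIF3, -0.21 for eEF1, -0.14 for the TOP factors and -0.56 for the ribosomal protein genes, of which 12 were called lower (2.51% of all genes). The part of length in the difference between genotypes was not tested further.

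**Figure D4:**
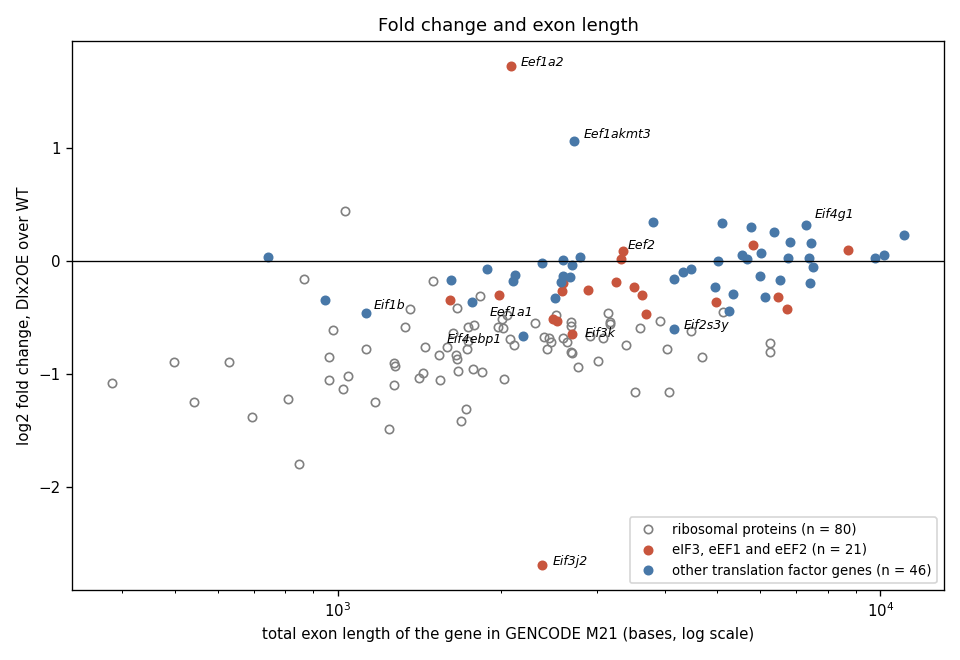
Log2 fold change (Dlx2OE over WT) against total exon length in bases on a log axis. Open circles are 80 ribosomal protein genes, red points are 21 genes of eIF3, eEF1 and eEF2, and blue points are the other 46 factor genes. At equal length the open circles lie mostly below the filled points, and the factor genes of 4000 bases or more are centred at 0.00.

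The other genes of the pathway were described from fixed lists. Of 22 genes for poly(A) binding, termination, recycling and hypusine formation, 15 had a log2 fold change below 0. With edgeR 1 was called lower (4.55%, against 3.46% of all genes) and DESeq2 called 2 lower (7.21% of all genes). The gene called with edgeR was Tpt1, which encodes the abundant protein TCTP and has a TOP mRNA, with 2771, 2822 and 2021 CPM in WT and 1581, 1388 and 1224 CPM in Dlx2OE (log2 fold change -0.86, adjusted p = 0.0404). Its genotypes did not overlap, and it was called in 11 of 16 alternative fits. Of 13 genes of mTORC1 and MNK signalling, 9 had values above 0 and 2 were called higher, 15.4% against 2.99% of all genes. Mtor, the kinase itself, had 58.6, 58.9 and 67.6 CPM in WT and 89.8, 78.9 and 88.7 CPM in Dlx2OE (log2 fold change 0.48, adjusted p = 0.0379). Tsc1, an inhibitor of mTORC1, had 71.9, 59.4 and 67.0 CPM in WT and 87.3, 88.1 and 89.8 CPM in Dlx2OE (log2 fold change 0.42, adjusted p = 0.0456). With a correction for gene length and GC content the adjusted p was 0.0982 for Mtor and 0.365 for Tsc1, and when each sample was left out it ranged from 0.0234 to 0.155 and from 0.0532 to 0.164. Mtor was called in 9 and Tsc1 in 6 of 16 alternative fits.

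Targets of the integrated stress response, which follows phosphorylation of eIF2alpha, were also described. Of 17 tested, 9 had values below 0 and the median was -0.04. With edgeR 1 was called lower (5.88% against 3.46% of all genes) and 0 higher, and DESeq2 called 3 lower (7.21% of all genes) and 0 higher. At an unadjusted p under 0.05, 5 of the 17 were lower and 0 higher, against 2695 lower and 2477 higher of all 17514 genes. In 7 of the 17 (41.2%, against 17.3% of all genes) all Dlx2OE samples lay below all WT samples. Atf4, the transcription factor of this response, had 115, 123 and 114 CPM in WT and 110, 108 and 103 CPM in Dlx2OE (log2 fold change -0.14, adjusted p = 0.327), or 0.02 with the length and GC correction. The gene called was Nupr1, a small stress-induced gene, at 1.23, 2.12 and 1.38 CPM in WT and 0.236, 0.382 and 0.443 CPM in Dlx2OE (log2 fold change -2.15, adjusted p = 0.0224), and it was called in 10 of 15 alternative fits.

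Markers of other cell types also differed between samples. The summed level of the 10 erythroid markers was 4353, 3991 and 3276 CPM in WT and 2492, 2539 and 1962 CPM in Dlx2OE, and 3 of the 10 were called lower, against 3.46% of all genes for this and the following lists. For the 6 macrophage markers it was 57.1 to 66.3 CPM in WT and 35.0 to 44.9 CPM in Dlx2OE, with 2 called lower. For the 6 endothelial markers it was 277 to 416 CPM in WT and 201 to 316 CPM in Dlx2OE, with 1 called lower. For the 8 epithelial markers it was 670 to 1193 CPM in WT and 519 to 1656 CPM in Dlx2OE, with 2 called lower. All markers of these lists passed the filter on low counts. Their part in the levels of the factor or ribosomal protein genes was not tested.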

How the data were processed

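RNA-seq of 6 samples was used. The authors filtered the reads, mapped them to mm10 with STAR 2.7.3a, counted them per gene with HTSeq 0.12.4 in union mode, and deposited raw counts without normalization. The annotation release and strand setting are not given in the sources used here. Reads that fit several genes are not counted in this mode, so genes with near-identical copies or overlapping exons can be understated. Summary lines of unassigned reads were left out of the tests.

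Samples were grouped by the labels. Symbols and exon lengths came from GENCODE M21, which holds 53706 of the identifiers. The main test was edgeR 4.0.16 under R 4.3.3 (filterByExpr with a minimum count of 10, TMM factors, quasi-likelihood F test on genotype, Benjamini-Hochberg adjustment over 17514 genes). The detection floor of 3 counts was 0.0955 to 0.111 CPM and covers counting error only. Alternatives were DESeq2 1.42.0, other scalings and filters, a loess correction for length and GC content (span 0.5), a replicate block, and removal of each sample. The scripts were tested on simulated data.

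The members and lists were chosen with earlier results of these data known. Genes named were those called, the gene with the smallest p in each class, a fixed set chosen by role and their paralogs; the other genes named were picked after their values were seen.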

Additional observations from a re-analysis of the deposited data

How the results depend on the processing

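Of 60 named genes under 16 alternative fits, 844 of 958 values kept their sign and their side of the threshold, 34 lost the call, 30 gained it and 50 changed sign, the last all in uncalled genes with reported values between -0.18 and 0.22. The number of factor genes called lower was 7 with DESeq2, 4 with no filter on low counts, and 0 with the replicate block and length and GC correction together or with a log2 fold change beyond 1. It was 0 to 10 when each sample was left out, with 10 without WT sample 3. The number of ribosomal protein genes called lower was 71 with DESeq2, 50 with no filter, 12 with the length and GC correction, 42 with the replicate block (3.16% of all genes), 5 with both (0.252%), 15 with a log2 fold change beyond 1, and 1 to 72 when each sample was left out. No factor or ribosomal protein gene was called higher in any of these fits. The medians moved by less than the spread between replicates in every fit. The replicate numbers did not pair the samples (correlations of same-numbered deviations -0.07, -0.21 and 0.07, and WT sample 1 correlated best with Dlx2OE sample 2), and with the replicate block Eif4ebp1 was called in place of Eif1b. The cause of these changes was not tested.

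The values that changed sign were as follows. With no filter Eef2 was -0.012, Eif2b5 -0.018 and Eif2d -0.0030, and with totals without ribosomal protein genes and factors Eif2b5 was -0.00022. With library size alone Eif5a was 0.044, Eif5a2 0.065 and Eif6 0.028. With the length and GC correction, without and with the replicate block, Eif1 was 0.022 and 0.025, Eif2ak3 -0.019 and -0.019, Eif3a -0.021 and -0.014, Eif4a3 0.059 and 0.063, Eif5a 0.134 and 0.130, Eif5a2 0.021 and 0.018, Eif6 0.054 and 0.050, Eif2d -0.119 and -0.118, Eif4g2 -0.095 and -0.094, Eif4g3 -0.020 and -0.020, and Atf4 0.020 and 0.020. When each sample was left out, Eef2 ranged from -0.063 to 0.064, Eif2ak3 from -0.010 to 0.158, Eif2b5 from -0.045 to 0.057, Eif3a from -0.014 to 0.245, Eif5a from -0.115 to 0.046, Eif5a2 from -0.082 to 0.084, Eif6 from -0.130 to 0.038, Eif1ad from -0.018 to 0.110, Eif2s2 from -0.141 to 0.150, Eif2d from -0.017 to 0.044, Eif3b from -0.0099 to 0.139 and Eif4g2 from -0.0040 to 0.102. Counts were low for Eef1akmt3 and Eif4ebp3, at 4 to 21 per sample.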

Other observations

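Enzymes that charge tRNAs had values on both sides of 0. Of 22 genes of the cytosolic aminoacyl-tRNA synthetases and their scaffold, edgeR called 0 and DESeq2 called 1 lower (7.21% of all genes). At an unadjusted p under 0.05, 1 was lower and 2 higher in Dlx2OE, 3 in all (29.5% of all genes passed that limit). Their median log2 fold change was -0.03, with 12 values below 0 and 10 above. Of 9 factors of mitochondrial translation, edgeR and DESeq2 called 0, and the median was -0.14. At an unadjusted p under 0.05, 4 of the 9 passed (2 lower and 2 higher), against 29.5% of all genes.

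In 3 further genes the values were not called and the genotypes did not overlap. Larp1, whose product binds the TOP motif, had 120, 127 and 155 CPM in WT and 177, 160 and 193 CPM in Dlx2OE (log2 fold change 0.40, edgeR adjusted p = 0.0926). Pdcd4, an inhibitor of eIF4A, had 112, 120 and 120 CPM in WT and 95.0, 97.5 and 89.5 CPM in Dlx2OE (log2 fold change -0.32, edgeR adjusted p = 0.0655). Paip2, an inhibitor of poly(A)-binding protein, had 379, 353 and 243 CPM in WT and 210, 224 and 188 CPM in Dlx2OE (log2 fold change -0.65, edgeR adjusted p = 0.0614). These genes were picked after their values were seen.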
